A study of Mus musculus with 10 samples.

Results

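The 7 genes described here are 3 bone morphogenetic protein (Bmp) ligands, Bmp2, Bmp4 and Bmp7, and the 4 Id genes, Id1, Id2, Id3 and Id4. They were taken by name, as the array probe sets annotated to 1 of these symbols alone. They are 7 of the 12393 genes that had such a probe set, and 13 probe sets measured them. All 7 were among the 9310 genes bright enough to be tested, for which 2 or more of the 10 arrays had to show a signal over their own 40th percentile.

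Bmp ligands are secreted proteins that bind paired receptors on the cell surface and lead to phosphorylation of Smad1, Smad5 and Smad9, which enter the nucleus with Smad4. The Id genes are among the best known targets of that pathway, and Id proteins bind basic helix-loop-helix transcription factors and keep them off DNA. In skin, Bmp signalling is known for its part in keratinocyte differentiation and in the making of sweat glands, rather than hair follicles, in the footpad.

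The mice were wild-type CD1 females whose paw pads gave all cells, with no allele or agent that differs between groups and no age in the labels. Sorting by flow cytometry had given 5 populations with 2 arrays each: the contractile outer myoepithelial cells and the inner secretory luminal cells of the coiled gland, the basal and the suprabasal layer of the straight duct, and the epidermis of the palmoplantar skin. The study asks about stem and progenitor cells of glands and ducts in rest and after wounding, and these arrays compare the populations with each other. The sorting markers and the number of animals behind an array are not in the labels, which call the arrays biological replicates, so p-values measure only the spread between these arrays.

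Signal is the Affymetrix MAS5 value on a linear scale, which was not compared between different genes because probe sets differ in their response. The 40th percentile of an array, used here to mark low signal, lay between 33.6 and 60.5, and with 2 arrays in each population the number of arrays limits the precision. The arrays of a population correlated at 0.963 to 0.981, except those of duct suprabasal cells at 0.907. In duct suprabasal cells 8 endothelial markers summed to 3379 (array 1) and 18434 (array 2), and elsewhere to at most 1016. All 8 lay above the 40th percentile on both duct suprabasal arrays. The sum of 7 fibroblast markers was 16704 and 87379 on these arrays. It was 21669 to 44326 in myoepithelial and duct basal cells, mostly from Dcn and Postn, and at most 6495 in luminal cells and epidermis. By this sum array 2 alone stood above the rest. By Col3a1, Col1a2, Lum and Pdgfra, array 1 also exceeded every array of the other populations (Col3a1 5965.7 against at most 2454.8). By Col1a1, Dcn and Postn it did not. In myoepithelial cells all 7 immune markers lay above the 40th percentile, with sums of 5026 and 6931 against at most 1683 elsewhere. Keratin and smooth muscle markers of the labelled cell types were bright in their own populations, and the luminal keratin and Aqp5 sum, 60345 and 74163 in luminal cells, was also high on both duct suprabasal arrays, at 33891 and 15164, and on myoepithelial array 1, at 17055 against 7787 on array 2. The sum of 5 epidermal differentiation markers was 105815 and 103507 in the epidermis and at most 1353 in both gland populations. In the duct it was 22733 and 43385 in basal cells and 20851 and 24547 in suprabasal cells. In the epidermis the summed signal of 10 early response genes, which tissue dissociation is known to induce, was 5409 and 8886, against 36223 to 104118 elsewhere.

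The bases upstream of 3 Id genes are shown because these genes had unlike patterns across the populations. They are the 250 bases before the annotated start in RefSeq (GRCm38.p6), whose promoter table matched 4 of the 7 genes, and each stands 5′ to 3′ on the strand of its gene. Capitals mark GGCGCC, a GC-rich element known from Bmp-responsive genes, and CAGAC on either strand, the core of the Smad binding element.
Id2, chr12:25096093-25096342, minus strand: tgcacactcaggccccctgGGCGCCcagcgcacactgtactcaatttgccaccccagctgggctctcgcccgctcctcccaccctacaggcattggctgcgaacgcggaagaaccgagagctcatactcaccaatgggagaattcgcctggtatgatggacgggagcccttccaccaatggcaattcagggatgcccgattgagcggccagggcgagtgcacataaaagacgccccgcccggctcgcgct
Id3, chr4:136143572-136143821, plus strand: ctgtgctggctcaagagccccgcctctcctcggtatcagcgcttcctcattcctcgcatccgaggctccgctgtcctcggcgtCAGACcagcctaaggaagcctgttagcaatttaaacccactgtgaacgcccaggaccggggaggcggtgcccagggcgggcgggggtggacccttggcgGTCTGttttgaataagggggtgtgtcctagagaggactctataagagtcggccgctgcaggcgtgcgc
Id4, chr13:48260866-48261115, plus strand: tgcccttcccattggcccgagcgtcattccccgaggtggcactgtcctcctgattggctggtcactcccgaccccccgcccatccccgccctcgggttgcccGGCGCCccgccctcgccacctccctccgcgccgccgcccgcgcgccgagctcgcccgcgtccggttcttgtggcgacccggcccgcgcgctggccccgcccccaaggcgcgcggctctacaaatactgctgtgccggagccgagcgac
Id2 held GGCGCC at -231 and Id4 held it at -148, counted from the start of the gene, and Id3 held CAGAC at -167 and, on the other strand, at -68. GGCGCC stood in 9.59% of all 32851 windows of the same length and CAGAC in 42.2%, both strands searched. The E-box CANNTG, the site bound by the factors that Id proteins block, stood at -196 in Id2, at 3 places in the window of Bmp4, and in 66.2% of all windows. A match is a run of letters and no measured site.

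In the model of all 10 arrays, each of the 7 genes passed the F test over the 5 populations (limma, Benjamini-Hochberg adjusted p between 2.70e-05 and 0.00979), as did 65.8% of all genes tested. Over the 10 pairs of populations and 7 genes, 38 of 70 differences passed an adjusted p of 0.05, or 54.3%, against 31.7% over all genes. The 7 genes were chosen with earlier results of these data known. Their shares and medians beside those of all genes, here and below, are therefore a description and no test. Log2 differences were taken after adding 12 to each signal, so folds derived from them understate changes of dim genes, and they are given with the standard error (SE) of the fit.

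**Figure D1:**
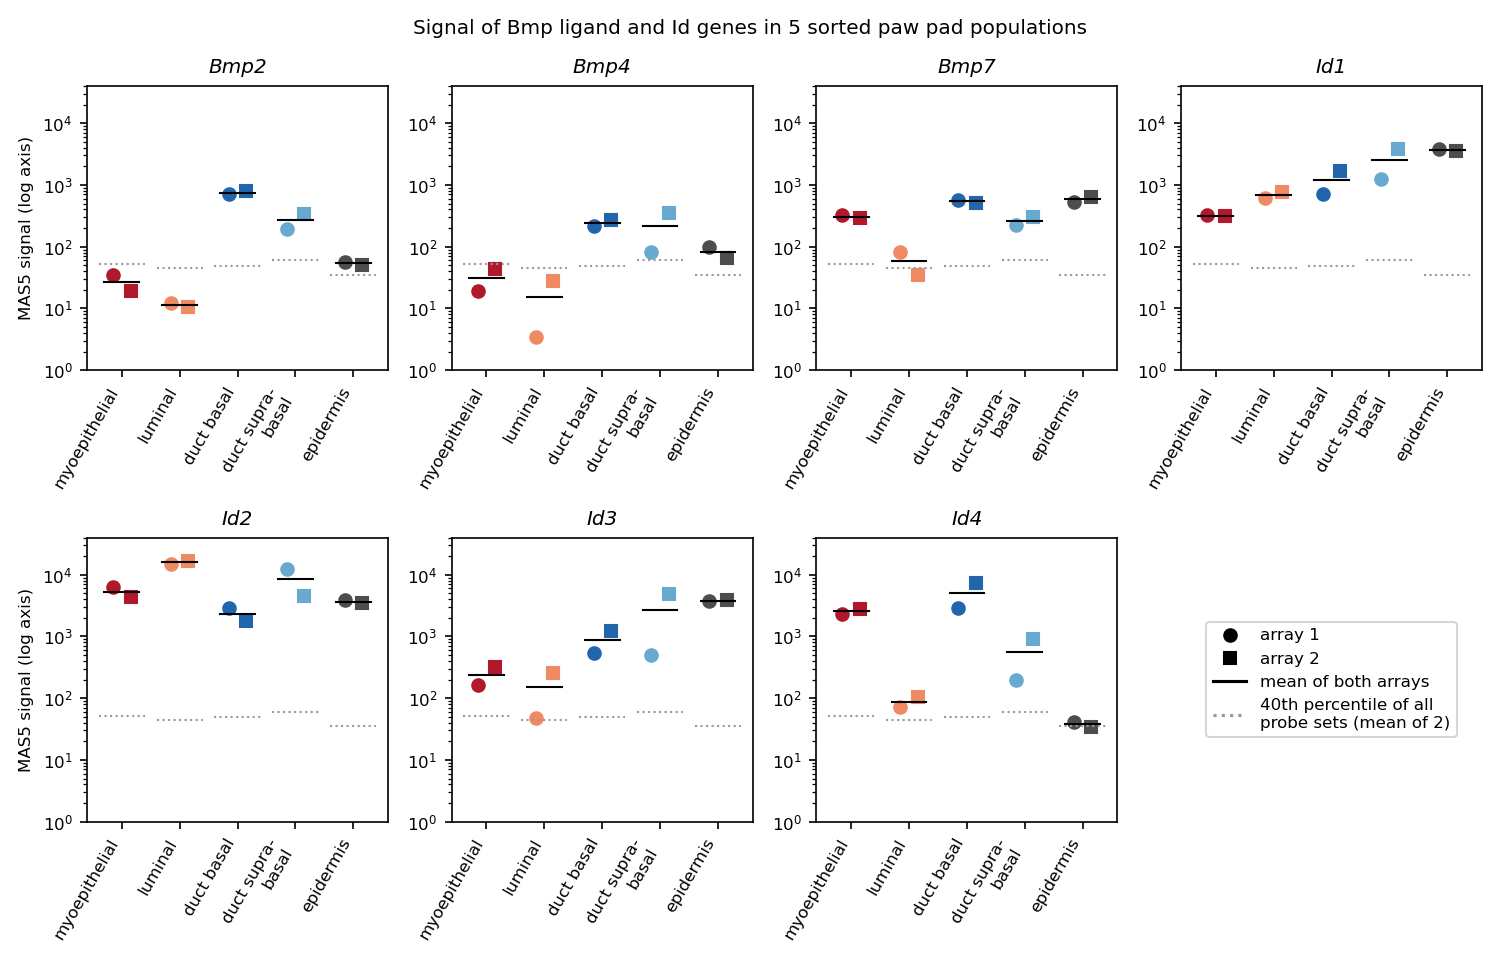
MAS5 signal (log axis) of the probe set that represents each gene, by sorted population; circles are array 1, squares array 2, black lines the mean of 2 arrays, and dotted lines the 40th percentile of all probe sets. Bmp2 was at 707 and 793 in duct basal cells and at most 34.5 in both gland populations, while Id4 was at 2298 to 7210 in myoepithelial and duct basal cells and at 41.9 and 34.5 in the epidermis.

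Bmp2, a ligand known for its role in bone and in epidermal appendages, was highest in the duct. Its signal (probe set 1423635_at, gene at chr2:133552159-133562896 in GRCm38.p6) reached 707.2 and 792.5 in duct basal cells, 192.8 and 343.9 in duct suprabasal cells, 56.5 and 50.7 in the epidermis, 34.5 and 19 in myoepithelial cells, and 12.1 and 10.5 in luminal cells. No population overlapped with another, and both gland populations lay under the 40th percentile of their arrays. Duct basal cells held 32.7-fold more than luminal cells (log2 difference luminal minus duct basal -5.03, SE 0.36, limma adjusted p = 2.17e-05). They also exceeded myoepithelial cells (log2 difference myoepithelial minus duct basal -4.32, adjusted p = 5.86e-05) and the epidermis 11.6-fold (log2 difference 3.54, adjusted p = 0.000161).

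The Bmp2 order was duct basal, duct suprabasal, epidermis, myoepithelial and luminal. Of 10 pairs, 8 passed the test. The neighbours in the order that did not pass were epidermis and myoepithelial cells (log2 difference myoepithelial minus epidermis -0.79, 95% interval -1.59 to 0.02, adjusted p = 0.0924) and myoepithelial and luminal cells (myoepithelial minus luminal 0.71, interval -0.10 to 1.51, adjusted p = 0.167). Duct suprabasal cells lay 4.12-fold above the epidermis (adjusted p = 0.00172) and 2.82-fold below duct basal cells (adjusted p = 0.0236). That last call was lost without any 1 of duct basal array 1, duct basal array 2 and duct suprabasal array 1, with adjusted p up to 0.131 among all alternatives, and the values within array numbers 1 and 2 alone were 1.81 and 1.18.

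Bmp4, a close relative of Bmp2 that is often made by mesenchyme, also had its highest mean signal in duct basal cells. Its signal (1422912_at, chr14:46383525-46390669) was 219.4 and 266.2 in duct basal cells, 82.5 and 355.5 in duct suprabasal cells, 97.9 and 66.2 in the epidermis, 19.2 and 43.1 in myoepithelial cells, and 3.4 and 27.3 in luminal cells. Both gland populations were low, the duct suprabasal arrays enclosed the duct basal values, and myoepithelial and luminal values overlapped. Duct basal cells exceeded luminal cells 10.3-fold (log2 difference luminal minus duct basal -3.37, SE 0.67, adjusted p = 0.00437), a call kept in all 23 alternatives, with -2.69 without luminal array 1 and -4.04 without luminal array 2. They exceeded myoepithelial cells 6.12-fold (adjusted p = 0.0205), a call lost without myoepithelial array 1 or either duct basal array.

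The duct basal and duct suprabasal means of Bmp4 did not differ beyond their spread (log2 difference 0.45, 95% interval -1.06 to 1.95, adjusted p = 0.694), and the duct suprabasal arrays enclosed the duct basal ones. Duct basal minus epidermis was 1.45 (interval -0.05 to 2.95, adjusted p = 0.123), with arrays that did not overlap. That difference passed with only those 4 arrays fitted (adjusted p = 0.00606), and without duct suprabasal array 1 (adjusted p = 0.0405) or array 2 (adjusted p = 0.0434). Luminal cells were also lower than duct suprabasal cells (-2.92, adjusted p = 0.0201; lost in 4 of 23 alternatives, among them those without luminal array 1 or duct suprabasal array 2) and than epidermis (-1.91, adjusted p = 0.0413; lost in 8 of 23 alternatives). Without luminal array 1 or 2 these differences were -2.25 or -3.60 and -1.24 or -2.59, and without duct suprabasal array 1 or 2 the first was -3.90 or -1.94. The higher duct suprabasal value, 355.5, was on array 2, which also had the highest endothelial and fibroblast sums of the 10 arrays. The part of those cells in the Bmp4 value was not tested. Duct basal cells also had 3 of 7 fibroblast markers called higher than luminal cells and 0 lower, where 35.4% of all genes passed. The part of fibroblasts in the duct basal Bmp4 values was not tested either. In sorted bulk samples, fewer cells of a type and less RNA per cell cannot be told apart.

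Bmp7, a ligand of the other main Bmp subgroup that is known from epithelia and kidney, was low in luminal cells and present in the other populations. Its brightest probe set (1435479_at, chr2:172868012-172940321) was at 82.1 and 34.6 in luminal cells, against 325.8 and 290.2 in myoepithelial cells, 580 and 512.6 in duct basal cells, 226.6 and 303.6 in duct suprabasal cells, and 535.8 and 647.5 in the epidermis. Luminal arrays lay below all 8 others. The difference passed the test against each population: 9.08-fold below epidermis (log2 difference -3.18, SE 0.33, limma adjusted p = 7.69e-05), 8.42-fold below duct basal cells (adjusted p = 0.000201), 4.82-fold below myoepithelial cells (adjusted p = 0.00141) and 4.14-fold below duct suprabasal cells (adjusted p = 0.00551). The first 3 of these were called in all 23 alternatives and the last in 22, with adjusted p = 0.0973 when only the arrays compared were fitted.

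Unlike Bmp2, Bmp7 by its brightest probe set did not differ detectably between duct basal cells and epidermis, whose arrays overlapped (log2 difference -0.11, 95% interval -0.86 to 0.64, adjusted p = 0.831). Epidermis exceeded duct suprabasal cells 2.19-fold (adjusted p = 0.0209, lost without duct suprabasal array 1 or either epidermis array) and myoepithelial cells 1.88-fold (adjusted p = 0.0445, lost in 11 of 23 alternatives). Another Bmp7 probe set, 1418910_at, was at 26 and 43.9 in luminal cells and at 146.7 to 703.3 elsewhere. The last, 1432410_a_at, was dim in the gland, at 13.6 or less, and highest in the epidermis, at 95 and 229.2. In a fit of all 14798 probe sets that passed the filter, luminal cells were below duct basal cells by all 3 Bmp7 probe sets (adjusted p = 0.000218, 9.03e-05 and 0.0171). The dim one did not separate myoepithelial from luminal cells (0.67, adjusted p = 0.477). By 1418910_at, duct basal arrays (485.2 and 478.8) lay below both epidermis arrays (647 and 703.3), with no call (-0.47, adjusted p = 0.290). It called myoepithelial cells below duct basal cells (-1.25, adjusted p = 0.0211) and epidermis (-1.72, adjusted p = 0.00168). It also called duct basal above duct suprabasal cells (1.28, adjusted p = 0.0291). Of these calls, the dim probe set made only that against epidermis (-2.92, adjusted p = 0.00430).

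**Figure D2:**
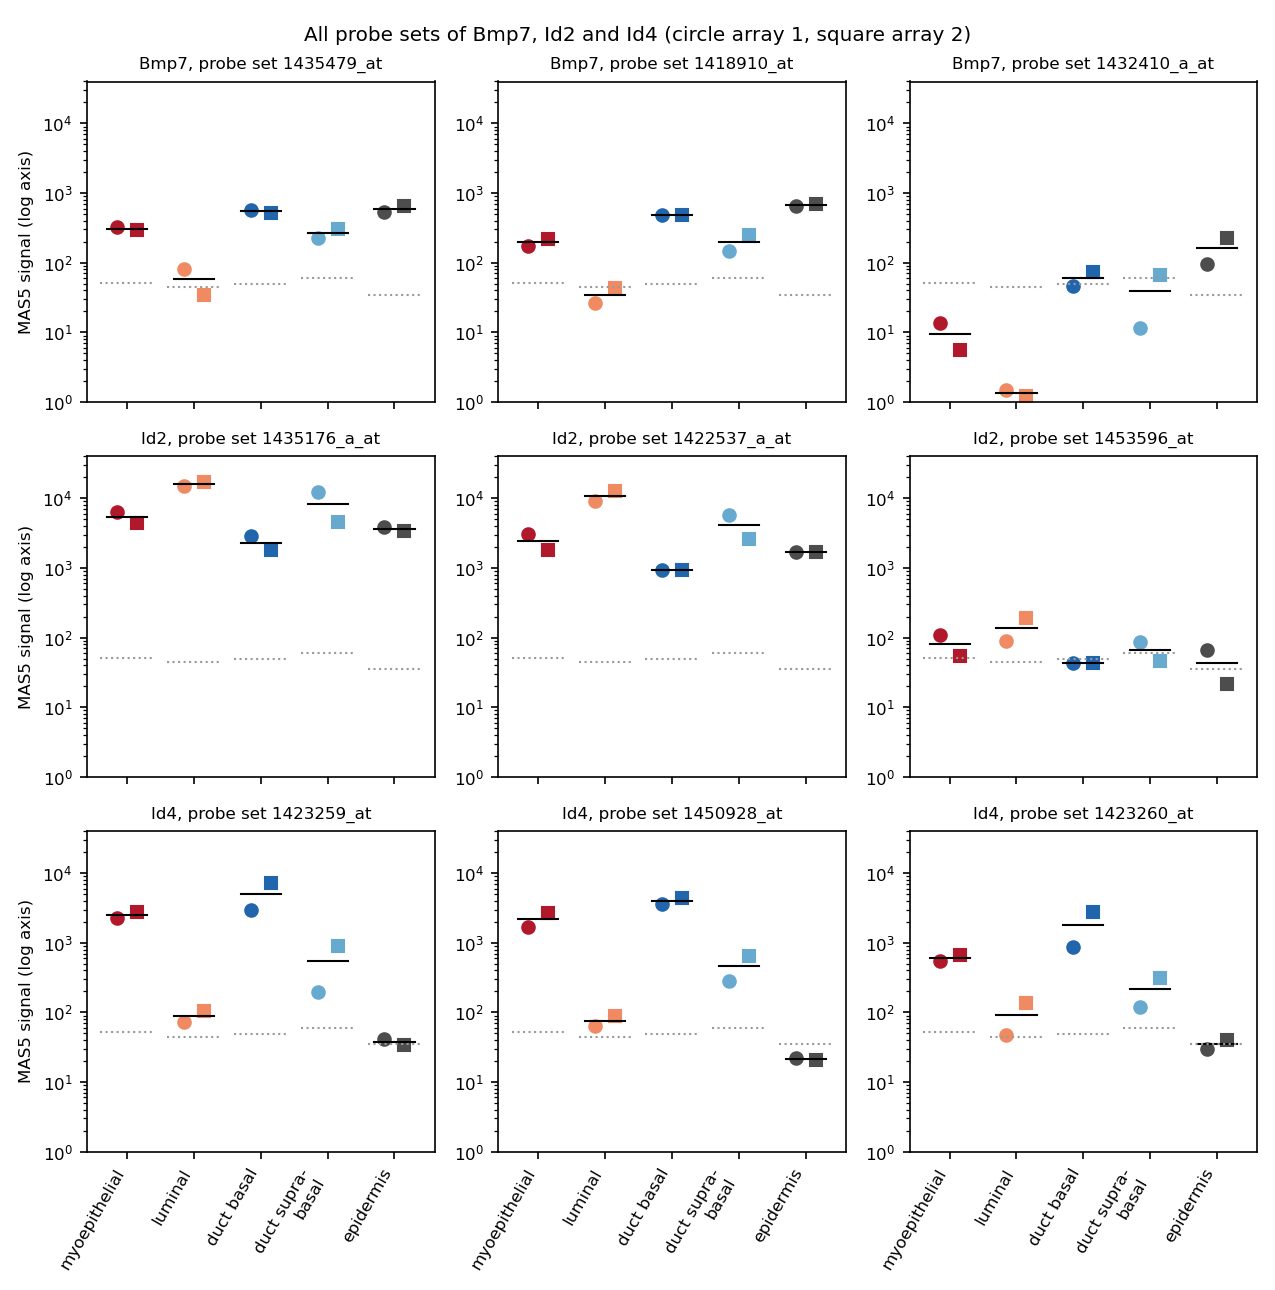
MAS5 signal (log axis) of each of the 3 probe sets of Bmp7, Id2 and Id4 by sorted population; circles are array 1, squares array 2, black lines the mean of 2 arrays, dotted lines the 40th percentile of all probe sets. All 3 Id4 probe sets were high in myoepithelial and duct basal cells, at 549.3 to 7209.8, while 1453596_at of Id2 stayed at 189.3 or less.

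Id4, the Id gene best known from neural and mammary progenitors, was high in the outer layer of gland and duct. Its signal (1423259_at, chr13:48261116-48266028) was 2298.4 and 2782.2 in myoepithelial cells and 2924.1 and 7209.8 in duct basal cells, against 195.3 and 906.7 in duct suprabasal cells, 72.8 and 103.5 in luminal cells, and 41.9 and 34.5 in the epidermis. No populations overlapped. Duct basal cells exceeded epidermis 92.0-fold (log2 difference 6.52, SE 0.63, limma adjusted p = 0.000122), and myoepithelial cells did so 50.8-fold (adjusted p = 9.45e-05). The epidermal signal lay close to the 40th percentile of its arrays, 33.6 and 36.1, so the size of these folds is imprecise. The log2 difference of duct basal cells and epidermis ran from 5.77 with 47 added in place of 12 to 7.17 without duct basal array 1, and was 5.87 without duct basal array 2.

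Within the gland, Id4 was 25.7-fold higher in myoepithelial than in luminal cells (log2 difference 4.68, SE 0.63, adjusted p = 0.000917). Within the duct it was 10.6-fold higher in basal than in suprabasal cells (3.40, adjusted p = 0.00848), a call lost without duct basal array 2 or with only the arrays compared. Without 1 array the difference was 4.05 (duct basal array 1), 2.75 (duct basal array 2), 2.33 (duct suprabasal array 1) or 4.47 (duct suprabasal array 2). The difference between these layer differences did not pass the test (1.28, 95% interval -0.71 to 3.28, adjusted p = 0.355), although without duct suprabasal array 1 it was 2.36 with adjusted p = 0.0208. Myoepithelial minus duct basal did not pass (-0.86, interval -2.27 to 0.55, adjusted p = 0.364), nor did luminal minus epidermis (0.98, interval -0.43 to 2.39, adjusted p = 0.230), although the last passed with only those arrays fitted (adjusted p = 0.0400). Between these pairs, duct suprabasal cells exceeded epidermis 8.72-fold (adjusted p = 0.00339, kept in all alternatives) and lay 5.82-fold below myoepithelial cells (adjusted p = 0.0226, lost in 4 of 23). They exceeded luminal cells 4.41-fold at adjusted p = 0.0490, which was lost in 17 of 23. Without duct suprabasal array 1 or 2, these 3 differences were 4.20 or 2.05 against epidermis, 1.47 or 3.62 for myoepithelial minus duct suprabasal, and -3.21 or -1.07 for luminal minus duct suprabasal.

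By mean signal, the other Id4 probe sets gave the same order of populations, from duct basal cells down to epidermis. Their myoepithelial minus luminal differences were 2.71 (SE 0.62, adjusted p = 0.0104) for 1423260_at and 4.62 (SE 0.38, adjusted p = 7.07e-05) for 1450928_at. Their duct basal minus epidermis differences were 5.06 (adjusted p = 0.000436) and 6.88 (adjusted p = 1.64e-05). Unlike the brightest probe set, 1450928_at also called luminal cells above epidermis (1.38, SE 0.38, adjusted p = 0.0165), with 63 and 88.4 against 22.1 and 20.7, while 1423260_at did not (0.996, adjusted p = 0.226).

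Id2, the Id gene known for blocking differentiation in mammary and blood lineages, was high in luminal cells, where Id4 was near the low end of its range. Its signal (1435176_a_at, chr12:25093799-25096092) was 15060.8 and 16849.7 in luminal cells, 12206.4 and 4558.4 in duct suprabasal cells, 6248.9 and 4349.8 in myoepithelial cells, 3835 and 3435.3 in the epidermis, and 2847.7 and 1778.8 in duct basal cells. Luminal arrays lay above all others and duct basal arrays below all others, while duct suprabasal and myoepithelial arrays overlapped. Luminal cells exceeded duct basal cells 7.04-fold (log2 difference 2.82, SE 0.42, limma adjusted p = 0.000998) and epidermis 4.38-fold (2.13, adjusted p = 0.00262), both kept in all 23 alternatives.

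In both structures Id2 was lower in the outer layer. Myoepithelial cells lay 3.05-fold below luminal cells (log2 difference -1.61, adjusted p = 0.0174, lost without myoepithelial array 2 or either luminal array), and duct basal cells 3.30-fold below duct suprabasal cells (-1.72, adjusted p = 0.0247, lost without duct basal array 2 or duct suprabasal array 1, or with only the arrays compared). Without duct suprabasal array 1 or 2 the duct difference was -1.01 or -2.43. Duct suprabasal array 1, with the higher Id2 signal, also had the higher luminal marker sum, 33891 against 15164 on array 2. The same held for myoepithelial array 1 (17055 against 7787), duct basal array 1 (6588 against 4270) and luminal array 2 (74163 against 60345). In the epidermis the array with the higher Id2 had the lower sum. The link was not tested. The neighbours in the order did not pass: luminal minus duct suprabasal was 1.09, myoepithelial minus duct suprabasal -0.52, myoepithelial minus epidermis 0.52 and duct basal minus epidermis -0.69, with adjusted p between 0.111 and 0.446. The first of these had arrays that did not overlap. It passed by probe set 1422537_a_at (1.48, SE 0.36, adjusted p = 0.0308), and by the brightest probe set with equal array medians (1.41, adjusted p = 0.0331) and without duct suprabasal array 1 (1.80, adjusted p = 0.00360), but was 0.38 (adjusted p = 0.462) without array 2. Probe set 1422537_a_at gave luminal minus duct basal 3.50 (SE 0.36, adjusted p = 0.000167), and the dim 1453596_at gave 1.37 (SE 0.54, adjusted p = 0.0858).

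Id1, known as an immediate target of Bmp Smads in many cell types, was highest in the epidermis by mean. Its signal (1425895_a_at, chr2:152736251-152737410) was 3806.8 and 3601.8 in the epidermis, 1225 and 3869.1 in duct suprabasal cells, 711.7 and 1672.1 in duct basal cells, 618 and 778.9 in luminal cells, and 320.2 and 312.5 in myoepithelial cells. Myoepithelial arrays lay below all others, and duct suprabasal array 2 was level with the epidermis while array 1 was within the duct basal range. Epidermis exceeded myoepithelial cells 11.3-fold (log2 difference myoepithelial minus epidermis -3.50, SE 0.51, limma adjusted p = 0.000445) and luminal cells 5.26-fold (-2.40, adjusted p = 0.00406), both kept in all 23 alternatives.

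Duct suprabasal cells held 6.67-fold more Id1 than myoepithelial cells (log2 difference myoepithelial minus duct suprabasal -2.74, adjusted p = 0.00664), lost only when those 4 arrays alone were fitted. Duct basal cells lay between, 3.36-fold above myoepithelial cells (adjusted p = 0.0347, lost in 8 of 23 alternatives) and 3.36-fold below epidermis (adjusted p = 0.0264, lost in 4 of 23). Without duct suprabasal array 1 or 2 the first of these 3 differences was -3.56 or -1.91. Without duct basal array 1 or 2 the second was -2.36 or -1.14 and the third -1.14 or -2.36. No step between neighbours in the order passed. The differences were -0.76 for duct suprabasal minus epidermis (95% interval -1.91 to 0.39, adjusted p = 0.252), -0.99 for duct basal minus duct suprabasal (adjusted p = 0.215), -0.65 for luminal minus duct basal (adjusted p = 0.361) and -1.10 for myoepithelial minus luminal (adjusted p = 0.132).

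Id3, which often moves with Id1 and is known as a Bmp target, had the same low gland and high epidermis values with a wider spread. Its signal (1416630_at, chr4:136143822-136145392) was 3690.6 and 3904 in the epidermis, 502.9 and 4811.3 in duct suprabasal cells, 535.5 and 1237.9 in duct basal cells, 47.8 and 259.8 in luminal cells, and 163.2 and 315.5 in myoepithelial cells. The duct suprabasal arrays enclosed the epidermis and the duct basal values, and the gland populations overlapped with each other only. Luminal cells lay 29.9-fold below epidermis (log2 difference -4.90, SE 0.99, limma adjusted p = 0.00308, kept in all 23 alternatives) and myoepithelial cells 15.9-fold (-3.99, adjusted p = 0.00817, lost without myoepithelial array 1). The luminal difference was -3.81 without luminal array 1 and -5.99 without luminal array 2.

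The remaining called Id3 pair was luminal below duct suprabasal cells (-3.63, adjusted p = 0.0386), which was lost in 12 of 23 alternatives and ran from -5.24 without duct suprabasal array 1 to -2.01 without array 2. Without luminal array 1 or 2 it was -2.54 or -4.72. The duct basal minus duct suprabasal difference did not pass (-0.93, 95% interval -3.16 to 1.30, adjusted p = 0.558), with 0.089 within array number 1 and -1.95 within array number 2. The layer difference in the gland minus that in the duct was 1.84 (interval -1.31 to 4.99, adjusted p = 0.401), and 3.45 with adjusted p = 0.0398 without duct suprabasal array 1.

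For Id1, Id3 and Bmp4, the brightest of the 10 arrays was duct suprabasal array 2, while array 1 of that population was at 1225, 502.9 and 82.5. All 8 endothelial markers lay above the 40th percentile on both arrays, with a sum of 18434 against 3379, and the fibroblast sum was 87379 against 16704. In the epidermis, where Id1 and Id3 were high on both arrays, the endothelial sum was 67.6 and 124, with 0 and 1 of 8 markers above the 40th percentile, and the fibroblast sum was 1087 and 1363. Without duct suprabasal array 2, Id1 was lower in duct suprabasal cells than in epidermis by a log2 difference of -1.59 and Id3 by -2.89, and without array 1 the values were 0.06 and 0.34. The part of other cell types in the duct suprabasal values was not tested. Duct basal array 2, with the higher Id1 and Id3 of its population, also had the higher epidermal differentiation sum, 43385 against 22733. That link was not tested. The early response sum was also lower in the epidermis than elsewhere, and its link with Id1 and Id3 was not tested.

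**Figure D3:**
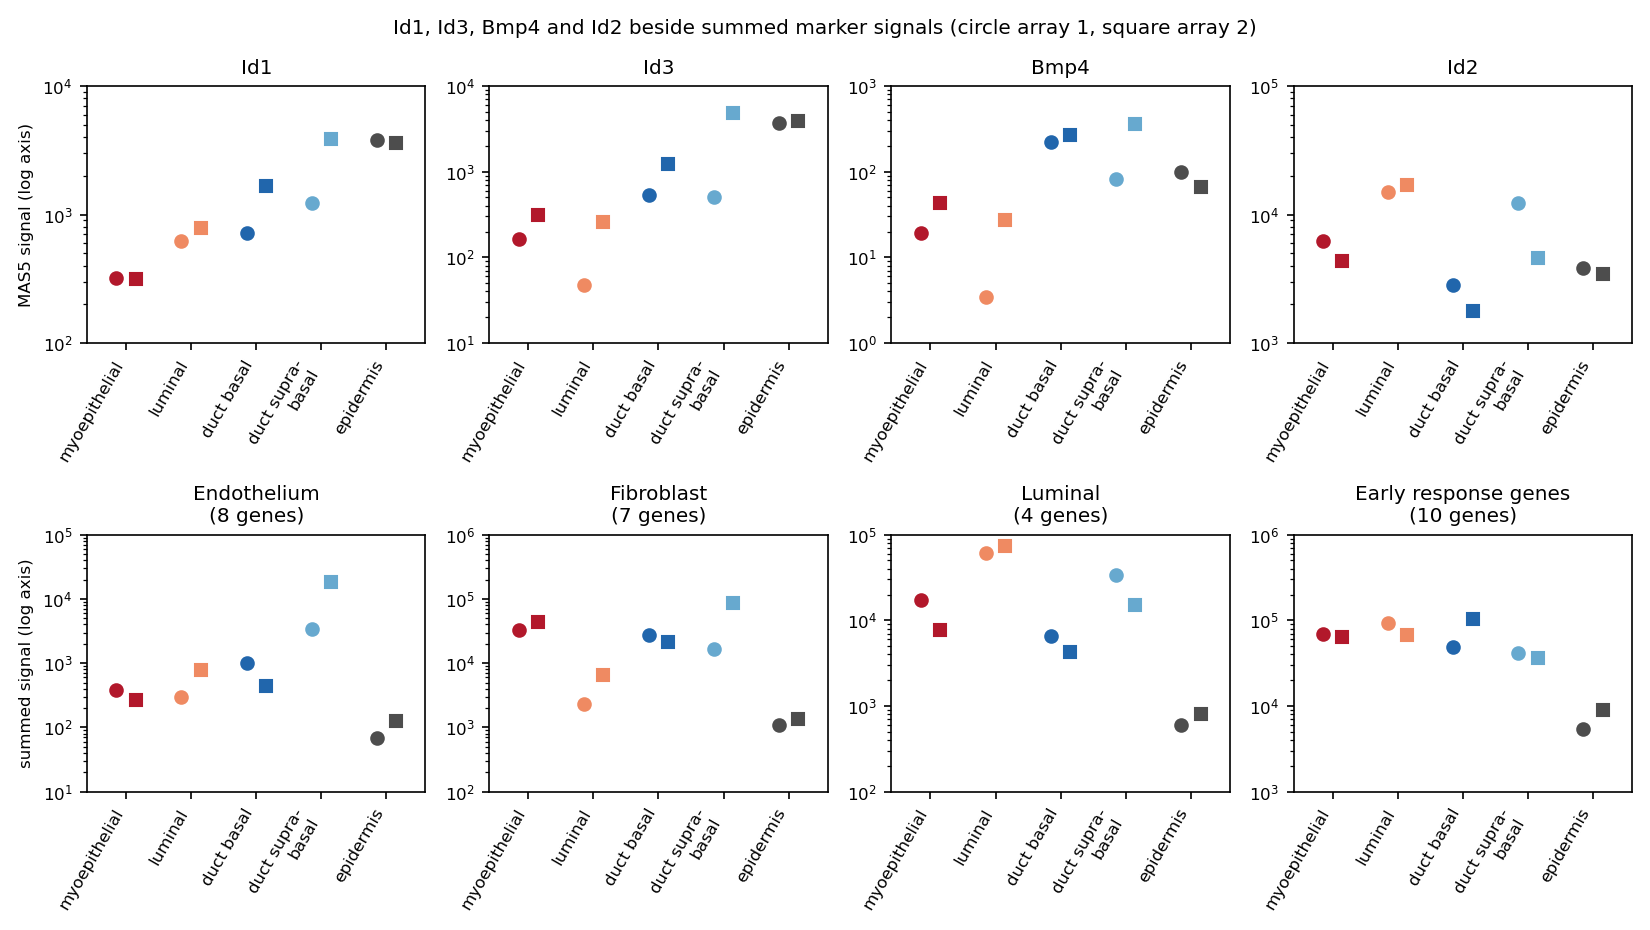
Signal (log axis) of Id1, Id3, Bmp4 and Id2, upper row, and summed signal (log axis) of endothelial, fibroblast, luminal and early response genes, lower row, by sorted population; circles are array 1 and squares array 2. Duct suprabasal array 2 had the highest Id3 signal, 4811.3, and the highest endothelial sum, 18434, while array 1 had the higher Id2 signal, 12206.4, and the higher luminal sum, 33891.

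Set side by side, the comparisons within the sweat apparatus had the following counts. Between myoepithelial and luminal cells 3 of the 7 genes passed, Bmp7 and Id4 higher and Id2 lower in myoepithelial cells, where 31.1% of all genes passed. Between duct basal and duct suprabasal cells 3 passed, Bmp2 and Id4 higher and Id2 lower in basal cells, where 16.4% of all genes did. Id4 and Id2 thus passed in opposite directions in each of these comparisons. The comparisons share no array, but their p-values rest on the residual variance of the same model of all arrays. The calls are therefore not separate evidence. With only the arrays compared fitted, Id4 and Id2 kept the call in the gland and lost it in the duct. The test of the difference between the layer differences called 0 of 7 genes, against 16.0% of all genes. Without adjustment over genes 1 of the 7, Bmp7, was past 0.05. Its difference was 1.25 (95% interval 0.19 to 2.31, limma adjusted p = 0.104).

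Between gland and duct, the gland was mostly lower. Myoepithelial minus duct basal called 3 of 7, Bmp2, Bmp4 and Id1, all lower in the gland, against 24.3% of all genes, and the median over the 7 genes was -1.75 against 0.02 over all genes. Luminal minus duct basal called 5 of 7, with Id2 alone higher in luminal cells, against 35.4%, and the medians were -3.07 and -0.04. Luminal minus duct suprabasal called 5 of 7, Bmp2, Bmp4, Bmp7, Id3 and Id4, all lower in luminal cells, against 15.2%. Myoepithelial minus duct suprabasal called 3 of 7, Bmp2 and Id1 lower and Id4 higher, against 17.4%. These comparisons share populations and so their arrays, and their counts are not separate evidence.

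Against the epidermis, luminal cells differed in 6 of 7 genes, all but Id4, against 45.3% of all genes, and only Id2 was higher in luminal cells. Myoepithelial cells differed in 4 of 7, Bmp7, Id1 and Id3 lower and Id4 higher, against 51.6%, which is near the share over all genes. Duct basal cells differed in 3 of 7, Bmp2 and Id4 higher and Id1 lower, against 34.0%, and duct suprabasal cells in 3 of 7, Bmp2 and Id4 higher and Bmp7 lower, against 46.0%, again near that share. The median of all genes relative to epidermis moved with the scaling of the arrays, from 0.25 to -0.49 for duct suprabasal cells when array medians were made equal. No called difference of the 7 genes changed direction under either of 2 other scalings.

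**Figure D4:**
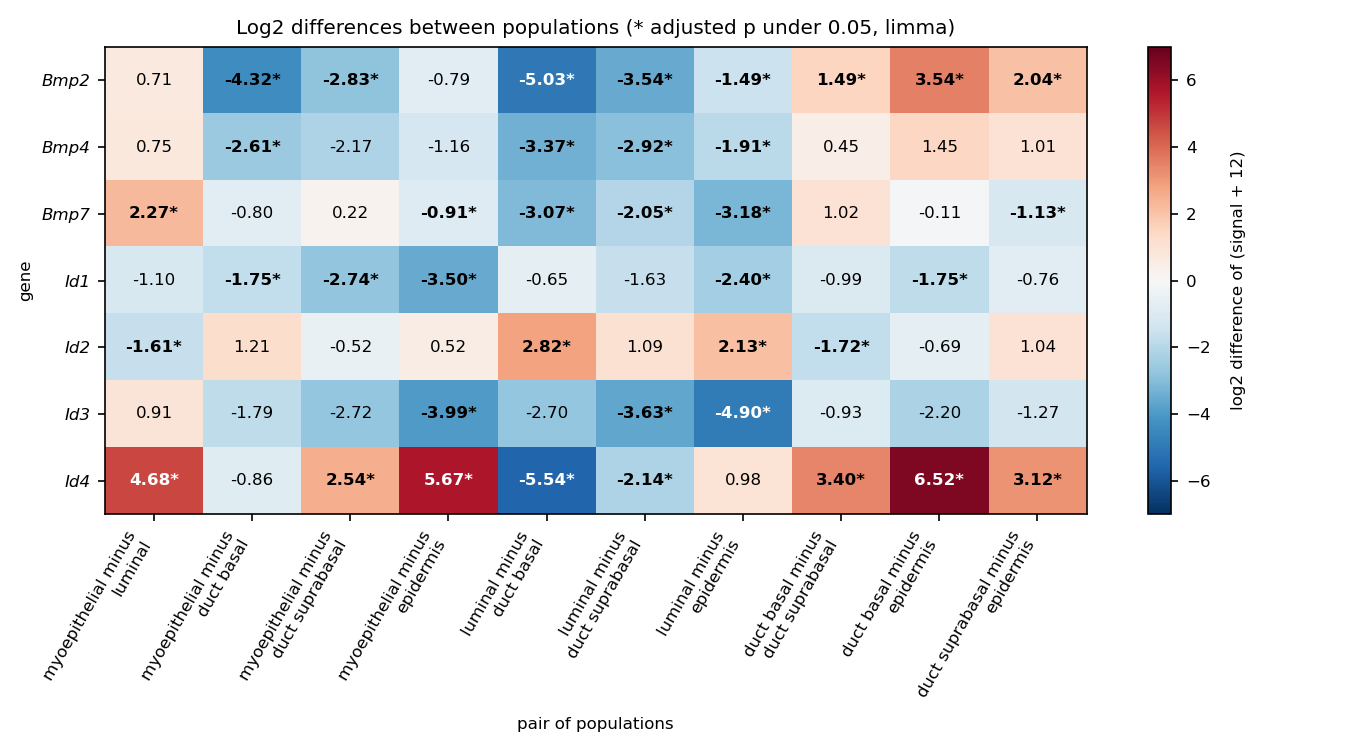
Log2 difference of (signal + 12) for each gene (rows) and pair of populations (columns), first named minus second named, with an asterisk where the limma adjusted p was under 0.05. Red is higher in the first population: Id4 ran from -5.54 for luminal minus duct basal to 6.52 for duct basal minus epidermis, and 38 of 70 cells passed.

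The rest of the pathway was read from lists of 51 other genes, 42 of them on the array and 31 bright enough to be tested. Of these 31, 21 passed the F test, among the 65.8% of all genes that did. In the gland, 12 of the 31 passed between myoepithelial and luminal cells, where 31.1% of all genes did. Myoepithelial cells had 11 pathway genes above luminal cells and 1, Gdf5, below. The 7 immune markers were also all called higher in myoepithelial than in luminal cells (median log2 difference 3.30), as 6 of 7 were against duct basal cells, and their part in the myoepithelial values was not tested. Against luminal cells, duct basal cells had 10 higher and 1 lower, Twsg1. These 11 of 31 were near the share over all genes, 35.4%. Duct suprabasal cells had 10 higher than luminal cells and 0 lower, where 15.2% of all genes passed. Against epidermis, 15 passed for myoepithelial, 8 for luminal, 13 for duct basal and 15 for duct suprabasal cells. The shares over all genes there were 51.6%, 45.3%, 34.0% and 46.0%. The median of the 7 receptors tested was 1.15 for myoepithelial minus luminal, against 0.08 over all genes. It was 0.01 for luminal minus duct basal, against -0.04. That of the 5 Bmp-responsive genes was -1.68 for luminal minus duct basal, against -0.04, but 0.09 for luminal minus epidermis, against 0.16. No list was tested as a set.

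Among the other Bmp ligands, 4 of 7 on the array were tested, and Bmp6, a ligand known from keratinocytes, stood out by its duct suprabasal signal of 189.1 and 241.7, against at most 51.3 elsewhere. Duct basal minus duct suprabasal was -2.72 for Bmp6 (SE 0.50, limma adjusted p = 0.00833), opposite in sign to Bmp2. Gdf5 was highest in luminal cells, at 99.5 and 75.3, with adjusted p = 0.0483 against myoepithelial cells, a call lost without any 1 of several arrays.

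Of the secreted antagonists, which bind Bmp ligands outside the cell, 4 of the 6 tested passed the F test, as 65.8% of all genes did. They were Sostdc1, Fst, Twsg1 and Nbl1. Sostdc1, which binds Bmps and Wnt receptors, was at 13427.3 and 19851.8 in myoepithelial cells and 9926.7 and 8550.1 in duct basal cells, 661.7 and 1231.9 in duct suprabasal cells, 922 and 791.3 in the epidermis, and 141.8 and 178.2 in luminal cells. Both outer layers were far above the others, with 6.58 (SE 0.30, adjusted p = 5.76e-06) for myoepithelial minus luminal and 3.33 (adjusted p = 0.000491) for duct basal minus duct suprabasal, and the gland difference was the larger by 3.24 (adjusted p = 0.00213).

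Fst, which encodes the activin and Bmp binding protein follistatin, was at 3858.1 and 2753.1 in myoepithelial cells, 412.2 and 497.9 in duct basal cells, and 87.9 or less on every other array. It was higher in myoepithelial than in luminal cells by 6.33 (adjusted p = 4.76e-05) and than in duct basal cells by 2.81 (adjusted p = 0.00272). The populations with the most Sostdc1, myoepithelial and duct basal cells, were also those with the most Id4, while Bmp2 was high in duct basal cells and low in myoepithelial cells. Of the 6 antagonists tested, 2 passed in the myoepithelial against luminal comparison, both higher, near the share of 31.1% over all genes. Nog, the antagonist noggin, was below the filter at 21.4 or less on every array.

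Of the receptors, 7 of 8 on the array were tested. Myoepithelial cells exceeded luminal cells in 3, where 31.1% of all genes passed: Acvr2a (2.20, adjusted p = 0.00141), Acvr1 (1.49, adjusted p = 0.00113) and Bmpr1a (1.15, adjusted p = 0.0228). The same 3 were higher in myoepithelial than in duct basal cells, where 24.3% of all genes passed, with Acvr2a at 2.31 (adjusted p = 0.00106). Acvr1 and Bmpr1a lost this call without any 1 of several arrays, among them duct basal array 2 (differences of 0.65 and 0.73). Bmpr1a also lost the call against luminal cells without any 1 of the 4 arrays compared, with adjusted p from 0.0809 to 0.111. Eng and Acvrl1, known from endothelium, were highest on duct suprabasal array 2, at 1445.3 and 514.4, the array with the highest endothelial sum. Smad1, a carrier of the signal, was at 187.5 and 299.1 in luminal cells and 764.9 or more elsewhere, and luminal cells were lower than duct suprabasal cells by -2.11 (adjusted p = 0.00366), than duct basal cells by -2.05 (adjusted p = 0.000984) and than epidermis by -1.73 (adjusted p = 0.00142).

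Among other genes known to respond to Bmp, the homeobox genes Dlx3 and Dlx5 were lowest in the gland by mean, as Bmp2 was. Msx2 and Hey1 of the same list did not follow. For them luminal minus duct basal was 0.34 and 0.85, with no call (limma adjusted p = 0.596 and 0.202). By mean, Msx2 was highest in luminal cells, at 177.4, and Hey1 was lowest in the epidermis, at 18.6 against 163.05 in luminal cells. Dlx5 was at 475.2 and 482.5 in duct basal cells, 323.7 and 315.5 in the epidermis, 120.7 and 192.8 in duct suprabasal cells, and 47.2 or less in both gland populations. Luminal minus duct basal was -4.31 for Dlx5 (SE 0.42, adjusted p = 0.000125) and -3.68 for Dlx3 (adjusted p = 0.000129), and myoepithelial minus duct basal was -3.26 and -2.05 (adjusted p = 0.000681 and 0.00381). Within the gland, Dlx3 was higher in myoepithelial than in luminal cells by 1.63 (adjusted p = 0.00901, lost without myoepithelial array 2 or luminal array 2), as was Msx1 by 1.87 (adjusted p = 0.00555). Msx1 had no call between myoepithelial and duct basal cells (0.18, adjusted p = 0.770). Of the partners of Id proteins, Tcf4 was highest in duct suprabasal cells, at 977.7 and 2412.1, again on the array with the most endothelial signal, and Tcf12 was higher in myoepithelial than in luminal cells by 0.73 (adjusted p = 0.0465). That call was lost without any 1 of the 4 arrays compared (adjusted p from 0.0976 to 0.222) or without either epidermis array.

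**Figure D5:**
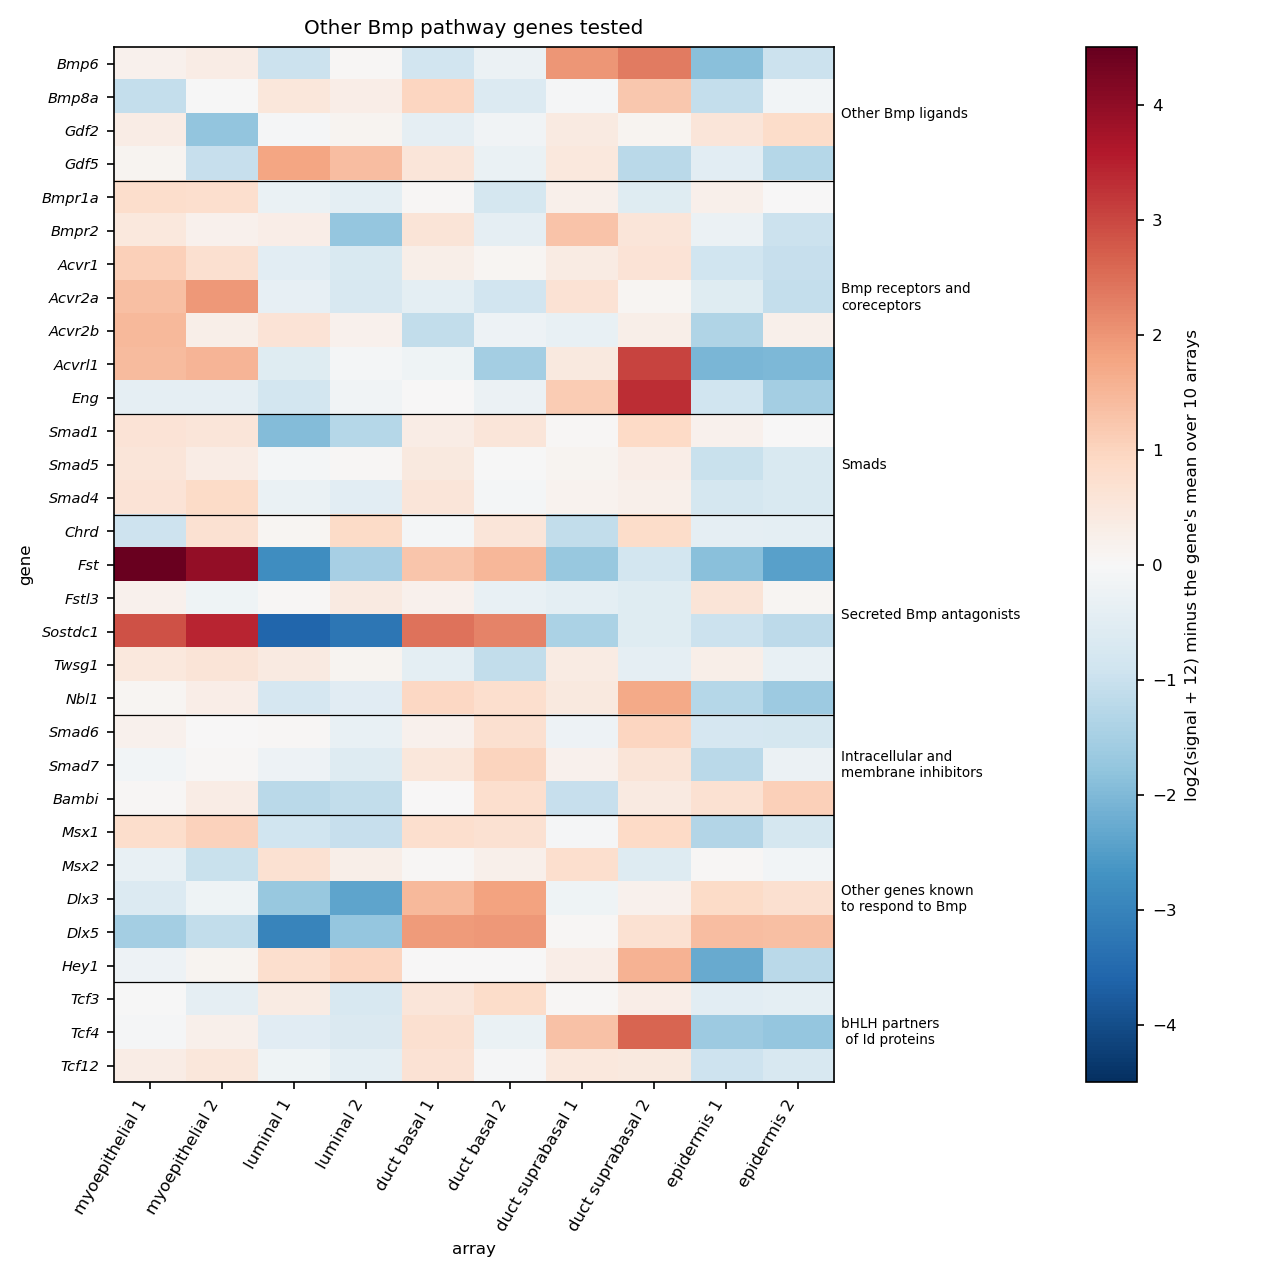
Log2(signal + 12) of the 31 other Bmp pathway genes tested, minus the mean of the gene over 10 arrays (colour), with genes in rows grouped by list and arrays in columns. Sostdc1 and Fst were high in the myoepithelial columns, Dlx5 low in both luminal columns, and Bmp6 high in both duct suprabasal columns, where its signal was 189.1 and 241.7.

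Among the 7 genes themselves, the signals over the 10 arrays correlated highest for Bmp2 and Bmp4 (Pearson r = 0.889) and for Id1 and Id3 (0.882), and lowest for Bmp7 and Id2 (-0.88). Id4 and Id1 had r = -0.426. These values describe arrays that fall into 5 populations and share their scaling, and carry no test. Of 9303 other genes, those most like each member over the 10 arrays were Stra6, Rad51b and Ctsc for Bmp2 (r = 0.98, 0.975 and 0.975), Ripk3, Fbln1 and Ahnak for Bmp4 (0.971, 0.964 and 0.931), and C1d, G3bp1 and Msantd3 for Bmp7 (0.971, 0.966 and 0.964).

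For the Id genes they were Tmem35a, Rbp7 and Anxa7 for Id1 (r = 0.97, 0.932 and 0.931), Bdh1, Dlg1 and Aldoc for Id2 (0.983, 0.98 and 0.975), Cst3, Rbp7 and Pdlim2 for Id3 (0.976, 0.958 and 0.955), and Spag7, Dbndd2 and Zmynd8 for Id4 (0.99, 0.987 and 0.976). Rbp7, a retinol-binding protein, stood in the lists of both Id1 and Id3, with 10870.6 and 9191.6 in the epidermis and 145.5 or less in both gland populations. Bdh1, a ketone body enzyme, was at 10221.9 and 11148.3 in luminal cells and 740 to 4844.2 elsewhere, with the higher duct suprabasal value on array 1 as for Id2. Fbln1, an extracellular matrix protein, was at 80.7 and 917.3 in duct suprabasal cells, split between the arrays as Bmp4 was.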

How the data were processed

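Total RNA of 5 sorted populations was measured on 10 arrays, 2 per population, extracted with Trizol and labelled as biotin cRNA, per the labels' protocols. The deposited values are MAS5 signal intensity per probe set, per the submitters' processing notes, on a linear scale from 0.1 to 72213.2; the version and detection calls are not given in the sources used here. With 2% trimmed from each end, every array had a mean of 500, so a change in total RNA cannot be seen.

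Of 22690 probe sets, 64 controls were left out, and 20380 had 1 gene symbol, 691 several and 1555 none listed. The probe set with the highest mean signal represented a gene, and other probe sets were tested separately. Log2 of signal plus 12 (the 20th percentile overall) was fitted with limma 3.58.1 (R 4.3.3) in 1 model of all 10 arrays with 5 residual degrees of freedom and a variance trend, with p-values adjusted by Benjamini-Hochberg over 9310 genes within a comparison, threshold 0.05. The fit was tested on simulated data. The named genes are the 7 members, the 3 genes most correlated with each, and up to 3 genes per pathway list and direction. The members and lists were chosen with earlier results of these data known. Sequences and positions are from RefSeq, GRCm38.p6; the authors' annotation build is not given in the sources used here. Alternatives covered the pseudocount, filter, scaling, variance model, probe set rule, replicate block and left-out arrays.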

Additional observations from a re-analysis of the deposited data

How the results depend on the processing

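The 70 differences between pairs were rerun under 23 alternatives, and the layer differences of Bmp7, Id3 and Id4 under 22; those of the other 4 genes entered only the counts of members called. Of these 73 differences 38 passed the test, all between pairs, and 20 of the 38 did so in every alternative. Of 1676 alternative values, 1509 kept direction and side of the threshold, 90 lost and 67 gained a call, and 10 changed direction, 0 of them of a called difference.

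With only the arrays compared, the members called were 6 for myoepithelial minus duct basal, 1 for myoepithelial minus duct suprabasal, 0 for luminal minus duct suprabasal, 0 for duct basal minus duct suprabasal and 6 for duct basal minus epidermis. Without both doubted arrays (myoepithelial array 1, with the higher luminal marker sum of its population, and duct suprabasal array 2, with the highest endothelial sum) they were 2 for luminal minus duct suprabasal, 6 for duct basal minus epidermis and 6 for duct suprabasal minus epidermis. Luminal minus duct suprabasal gave 3 under quantile normalization, where 1381 of all genes passed against 1413 in the main fit, and 3 with no variance trend. Leaving out 1 array at a time gave 1 to 4 for myoepithelial minus duct basal, 2 to 4 for myoepithelial minus epidermis, 2 to 7 for luminal minus duct suprabasal, 0 to 4 for duct basal minus duct suprabasal, 2 to 5 for duct basal minus epidermis, 2 to 6 for duct suprabasal minus epidermis and 0 to 2 for the layer difference. A lone array left in a population is assumed to vary like the other populations. A change of setting can also move the share of all genes called, which is not set beside the other counts here. They describe only how stable the calls were.

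Uncalled log2 differences that changed sign were Bmp7 myoepithelial minus duct suprabasal at -0.26 with the mean of probe sets, Id2 myoepithelial minus epidermis at -0.037 with equal array medians, and Id3 duct basal minus duct suprabasal at 0.68 without both doubted arrays. Leaving out 1 array at a time, the range was -0.18 to 2.00 for Id3 myoepithelial minus luminal, -1.23 to 0.19 for Id2 myoepithelial minus duct suprabasal, -0.53 to 1.42 for Bmp4 and -2.54 to 0.68 for Id3 duct basal minus duct suprabasal, -0.243 to 0.025 for Bmp7 duct basal minus epidermis, and -1.59 to 0.063 for Id1 and -2.89 to 0.34 for Id3 duct suprabasal minus epidermis. Beyond fewer arrays, the cause was not tested.

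The array numbers were not taken to pair the arrays, since the labels tie no number to an animal or day. Correlations of the deviations of same-numbered arrays were 0.12 to 0.357 in the 6 pairs of gland and duct populations and 0.0253 to 0.0878 in the 4 pairs with epidermis. With the replicate block, myoepithelial minus duct suprabasal called 5 members in place of 3, now with Bmp4 (adjusted p = 0.0229) and Id3 (adjusted p = 0.0139). In all 8 differences gained a call and 0 lost one. The others were Id2 myoepithelial minus duct basal (adjusted p = 0.0221), Id3 luminal minus duct basal (adjusted p = 0.00750), Id1 and Id2 luminal minus duct suprabasal (adjusted p = 0.0236 and 0.0436), Id3 duct basal minus epidermis (adjusted p = 0.0199) and Id2 duct suprabasal minus epidermis (adjusted p = 0.0247). The values within array number 1 and 2 were an alternative chosen after seeing the data. Signals near the 40th percentile, as of Bmp2 and Bmp4 in the gland, give folds with little precision.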
